A study of Mus musculus with 4 samples.

Results

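Collagen chains, laminin chains, fibronectin and integrin chains were examined in B16 cells, a mouse melanoma line that came from a spontaneous tumour of the C57BL/6 strain. They were taken from the count table by symbol: collagen chains (Col, digits, a, digits), laminin chains (Lama, Lamb or Lamc with a digit), integrin chains (Itga or Itgb, digits, at most 1 letter) and Fn1. Of 53465 gene rows, 77 matched, and 45 of these had at least 40 reads over the 4 libraries: 24 collagen, 5 laminin and 15 integrin genes, and Fn1. The 4 RNA-seq libraries were 2 of cells after 4 h with EM-plasma, which the labels give as plasma treated with exosome-mimetic nanovesicles, and 2 of control cells. What kind of plasma it was, what the controls received and when the controls were collected are not stated in the sources used here. No source says that the libraries came from separate cultures, so the p-values below rest on how much libraries of a group differed, and that difference may be technical.

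The extracellular matrix is the protein scaffold around cells. Collagens are triple helices of 3 chains that form fibrils, sheets or coats on other fibrils, laminins are trimers of an alpha, a beta and a gamma chain that build basement membranes, and fibronectin is a fibril-forming glycoprotein that cells assemble at their surface. Integrins are receptors of 1 alpha and 1 beta chain that bind these proteins and link them to the cytoskeleton. In melanoma cells they are known for their part in adhesion, migration and spread to other organs.

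Of the 45 genes, 6 passed the test: Itga8, Col15a1, Col12a1, Col27a1 and Fn1 were higher in EM-plasma-treated cells and Itga9 was lower. The changes were between 1.18-fold and 1.69-fold. Over all 13664 tested genes 6.21% were called, 3.34% higher and 2.88% lower, against 13.3% of the 45. The test was the quasi-likelihood test of edgeR, its p-values were adjusted over all tested genes by Benjamini-Hochberg, and a gene was called at an adjusted p below 0.05. Levels are in CPM, read counts relative to the library's size over the tested genes after TMM scaling, and fold changes are EM-plasma over Control. In 26 of the 45 genes (57.8%) the CPM of the 2 groups did not overlap, where 49.1% of all tested genes did so. All 45 genes entered the test, since each passed its filter on low counts. With no such filter 0 of the 45 genes were called, and DESeq2 on the filtered genes called 4 of them. Col4a4 passed that filter through the EM-plasma libraries alone. At the edge of the 40 reads, Itga7 with 42, Col11a1 with 45 and Col4a4 with 57 reads were inside, while Itga2 with 38, Col6a3 with 35 and Col28a1 with 28 were outside.

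**Figure D1:**
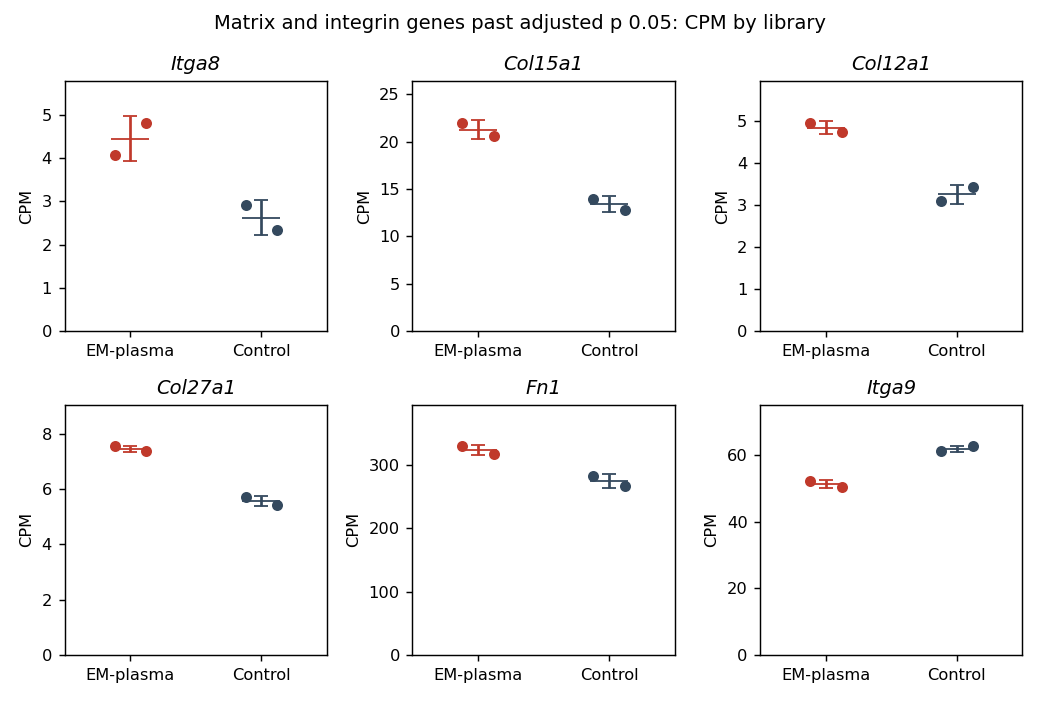
CPM of the 6 genes past the threshold, 1 point per library, with the group mean and SD (bar and whiskers, n = 2 per group), EM-plasma on the left and Control on the right; each axis starts at 0. In all 6 panels the groups do not overlap, and Itga9 is the one with EM-plasma below Control.

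Total counts per library lay between 46295133 and 49367932. Genes with any read numbered 19493 and 19484 in EM-plasma libraries, against 19122 and 18954 in Control libraries. All 10 melanocyte markers (Tyrp1, Pmel, Dct and others) had reads in every library and together reached 11600 and 11790 CPM in EM-plasma libraries, against 11420 and 11500 CPM in Control libraries, so the labelled cell type was borne out. Of markers of other cells, the leukocyte list summed to between 1.90 and 2.26 CPM and the platelet and erythroid list to between 0.0215 and 0.163 CPM in a library, with Ptprc and Ppbp at 0 reads. The fibroblast list summed to between 29.3 and 33.5 CPM, nearly all of it Pdgfrb with Postn and Pdgfra, while Dcn, Lum and Dpt had at most 1 read in a library. The endothelial list summed to 5.53 and 5.76 CPM in EM-plasma libraries and 4.14 and 3.82 CPM in Control libraries, nearly all of it Vwf, and Cdh5 and Kdr were at 0 reads. Vwf, the 1 of the 7 endothelial markers with enough reads to be tested, was itself called higher (log2 fold change 0.54, SE 0.15, edgeR adjusted p = 0.0281). The part of these in the results was not tested. In such bulk libraries, a change in RNA per cell and a change in the share of cells that make it cannot be told apart.

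Among the matrix genes of the 45, Fn1 was the most abundant after Lamc1 on the scale of CPM per kb of exon. It lies on chromosome 1 (71585520 to 71653200, GRCm38, ENSMUSG00000026193). It had 330 and 319 CPM in EM-plasma libraries, against 283 and 267 CPM in Control libraries. Both treated libraries were above both controls. The rise was 1.18-fold (log2 fold change 0.24, SE 0.045, 95% interval 0.14 to 0.33, edgeR adjusted p = 0.00111). Without EM-plasma 1 or EM-plasma 2 the call ended (edgeR adjusted p = 0.19 and 0.05003), with the log2 fold change between 0.20 and 0.28 over the 4 fits that leave out a library. Apol7d, on the opposite strand, shares 292 exon bases with Fn1 but had only 32 reads over the 4 libraries.

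Among collagens, 3 of 24 rose (12.5%) and 0 fell, where 3.34% of all tested genes were called higher and 2.88% lower. At an unadjusted p below 0.05 there were 8 of the 24, where 19.5% of all tested genes were, and DESeq2 called 1 higher and 0 lower. The median log2 fold change of the 24 was 0.19, against -0.0027 over all tested genes. Above 0 lay 19 of the 24, and 6712 of all 13664 tested genes. Summed over the 24, collagen CPM was 500 and 489 in EM-plasma libraries and 505 and 477 in Control libraries, so the sums overlapped. The 3 that rose belong to different structural classes, a multiplexin, a coat collagen of fibril surfaces and a fibrillar chain. In all, 11 collagens had both treated libraries above both controls and 2 had both below, where 24.3% and 24.8% of all tested genes did so. Many of these collagens were low: 13 of the 24 averaged under 5 CPM. The median log2 fold change of these 13 was 0.37, where that of all 3647 tested genes under 5 CPM was 0.086. Of those 3647 genes, 1033 had both treated libraries above both controls and 585 both below, so low genes leaned upward in general. Of the 13 collagens 6 were above and 0 below. The largest log2 fold change of the 13, 1.40, was that of Col4a4, which passed the low count filter through EM-plasma libraries alone.

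Col15a1 encodes the chain of collagen XV, a multiplexin of basement membrane zones, and lies on chromosome 4 (47208161 to 47313167, ENSMUSG00000028339). It had 22.0 and 20.5 CPM in EM-plasma libraries and 14.0 and 12.8 CPM in Control libraries, so every treated library was well above every control. The rise was 1.58-fold (log2 fold change 0.66, SE 0.086, edgeR adjusted p = 6.35e-06). It was the one gene of the 45 called in all 4 fits that leave out a library, with edgeR adjusted p up to 0.00856. Col18a1, which encodes the other multiplexin and the precursor of endostatin, was near the limit of detection. It had 34 and 13 reads in EM-plasma libraries and 13 and 6 reads in Control libraries (log2 fold change 1.35, SE 0.56, edgeR adjusted p = 0.161). The EM-plasma libraries differed from each other here by more than the lower of them differed from Control 1.

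Col12a1 encodes collagen XII, which lies on the surface of other fibrils (a FACIT collagen). It had 4.95 and 4.73 CPM in EM-plasma libraries and 3.09 and 3.42 CPM in Control libraries (log2 fold change 0.57, SE 0.16, edgeR adjusted p = 0.0288). Col27a1, a fibrillar chain known from cartilage, had 7.55 and 7.39 CPM in EM-plasma libraries and 5.71 and 5.44 CPM in Control libraries (log2 fold change 0.42, SE 0.13, edgeR adjusted p = 0.0439). For both the groups were apart, but each call ended whichever library was left out (edgeR adjusted p 0.0749 to 0.204 for Col12a1 and 0.0755 to 0.28 for Col27a1). DESeq2 called neither. All 7 FACIT genes had a log2 fold change above 0, from 0.029 to 0.57, as had 6712 of all 13664 tested genes. Col12a1 was the one of the 7 that passed, and in 4 of the 7 the groups overlapped. The most abundant of them, Col16a1, had 35.2 and 33.7 CPM in EM-plasma libraries and 33.2 and 30.8 CPM in Control libraries (log2 fold change 0.10, 95% interval -0.035 to 0.24, edgeR adjusted p = 0.429). Col20a1, which overlapped between the groups, shares 79 exon bases with another gene on its strand that had 1625 reads, more than its own.

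The chains of collagen I, the main fibril of skin and bone, passed the test in neither gene. Col1a1 had 4.27 and 3.39 CPM in EM-plasma libraries and 2.56 and 2.62 CPM in Control libraries (log2 fold change 0.57, SE 0.18, edgeR adjusted p = 0.0641), so the groups were apart. Its partner Col1a2 had 24.3 and 23.8 CPM in EM-plasma libraries and 25.0 and 23.0 CPM in Control libraries (log2 fold change 0.0029, 95% interval -0.15 to 0.16). Per length, Col1a2 exceeded Col1a1 by 3.01 and 3.70 times in EM-plasma libraries and by 5.16 and 4.64 times in Control libraries. Collagen I is built from 2 chains of Col1a1 to each chain of Col1a2, whereas here the transcript of Col1a2 was the more abundant one in every library. Col5a1, the most abundant fibrillar chain, which helps start fibrils, had 102 and 101 CPM in EM-plasma libraries and 114 and 109 CPM in Control libraries (log2 fold change -0.14, SE 0.052, edgeR adjusted p = 0.117).

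Collagen IV, the network of basement membranes, was the most abundant collagen type per length and did not pass the test in any chain. Col4a1 had 95.6 and 93.1 CPM in EM-plasma libraries and 97.4 and 93.7 CPM in Control libraries. Col4a2 had 88.4 and 88.5 CPM in EM-plasma libraries and 93.1 and 81.6 CPM in Control libraries. The groups overlapped in both, with 95% intervals of the log2 fold change from -0.13 to 0.091 and from -0.10 to 0.14. These genes stand head to head on chromosome 8, and their 5′ ends share 22 bases on opposite strands. Together the 2 chains made up 72.8% and 71.7% of the collagen IV transcripts per length in EM-plasma libraries, and 72.3% and 70.0% in Control libraries. Col4a5, the next chain, had 65.4 and 68.4 CPM in EM-plasma libraries and 69.8 and 71.6 CPM in Control libraries (edgeR adjusted p = 0.482). Col4a4 had 22 and 19 reads in EM-plasma libraries and 8 in each Control library (edgeR adjusted p = 0.13). Col7a1, the anchoring fibril chain, had 54 and 44 reads in EM-plasma libraries and 33 and 20 in Control libraries (edgeR adjusted p = 0.12), and Col8a1, a network-forming chain, overlapped between the groups. All 20 other matching collagens were under the minimum of 40 reads, among them Col3a1 with 1 read and Col5a2 with 8, and 5 had no read.

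**Figure D2:**
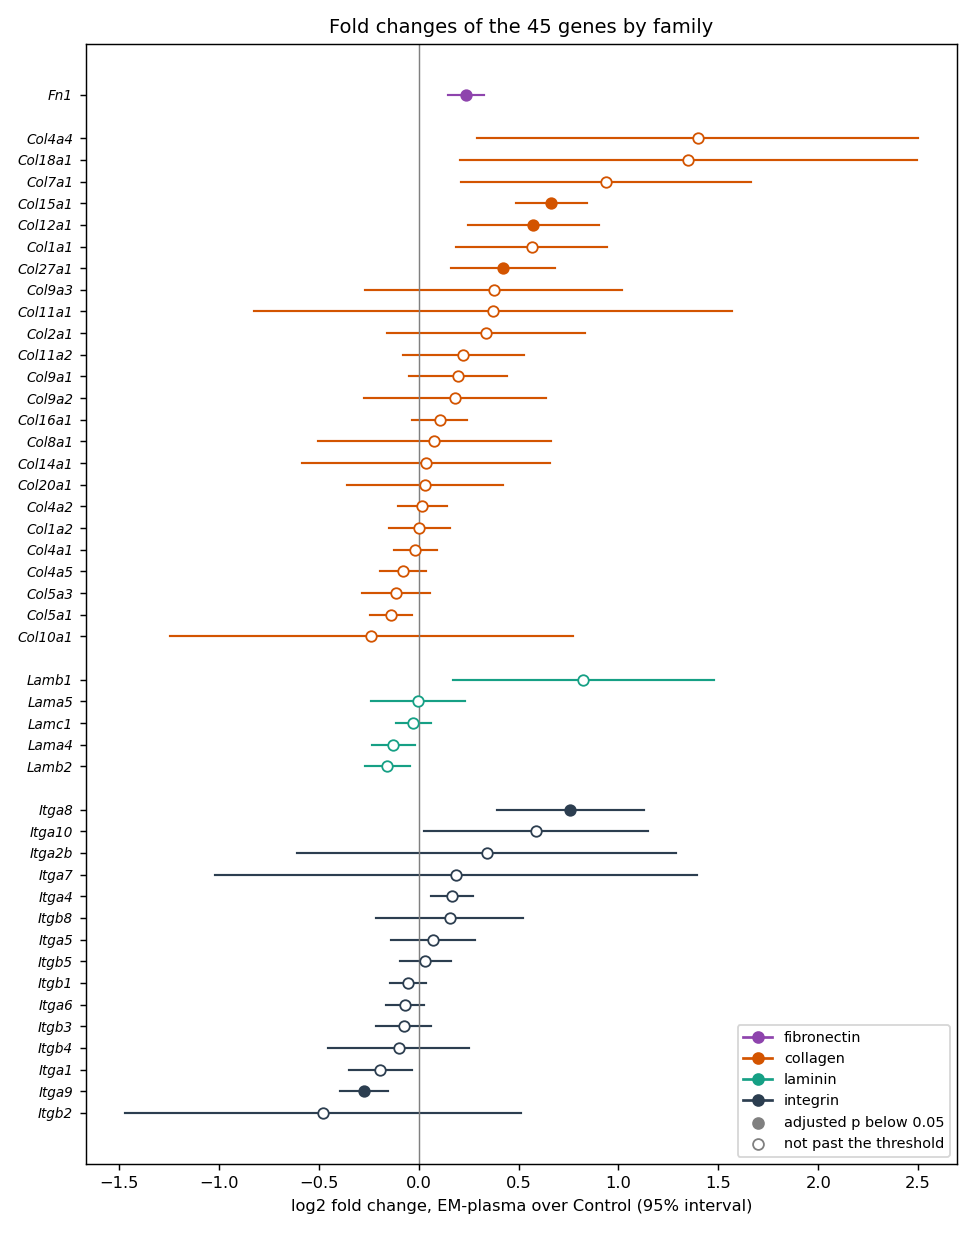
Log2 fold change of EM-plasma over Control for all 45 genes with 95% intervals, by family and ordered by size within each; filled points passed an adjusted p of 0.05. The abundant chains (Lamc1, Itgb1, Itga6, Col4a1) have narrow intervals around 0, while Col4a4, Col18a1 and Itga7 have wide ones.

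Of the 5 laminin genes 0 passed, where 6.21% of all tested genes did. At an unadjusted p below 0.05 there were 3 of the 5, where 19.5% of all tested genes were, and DESeq2 called 0. Lamc1, the gamma chain common to most laminins, had 368 and 365 CPM in EM-plasma libraries and 376 and 370 CPM in Control libraries (log2 fold change -0.026, 95% interval -0.11 to 0.060). Lamb2 had 108 and 105 CPM in EM-plasma libraries and 126 and 113 CPM in Control libraries (log2 fold change -0.16, SE 0.055, edgeR adjusted p = 0.0852), and the groups did not overlap. Lama4 had 96.8 and 101 CPM in EM-plasma libraries and 109 and 107 CPM in Control libraries (log2 fold change -0.13, SE 0.052, edgeR adjusted p = 0.154). The alpha, beta and gamma chain that led each class thus all had both treated libraries below both controls, by at most 1.12-fold. Of all tested genes 24.8% had that order, and for Lamc1 the gap was only that from 365 to 370 CPM. Lamb2 was called without Control 2 (log2 fold change -0.23, edgeR adjusted p = 0.0097) but in none of the other 3 fits that leave out a library (edgeR adjusted p 0.265 to 0.647), and its log2 fold change was -0.078 without Control 1.

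The transcripts of the laminin chains were at unequal levels. Per length, Lama4 made up 87.8% and 90.6% of the transcripts of the 2 alpha chains in EM-plasma libraries, and 89.4% and 90.6% in Control libraries, with Lama5 as the rest. Lamb2 made up at least 99.1% of the beta chain transcripts in every library. Lamb1 was the one laminin gene above 0 in fold change, at 71 and 61 reads in EM-plasma libraries and 27 and 50 reads in Control libraries (log2 fold change 0.82, SE 0.32, edgeR adjusted p = 0.13). Lama1 had no read, and Lama2, Lama3, Lamb3 and Lamc3 were under the minimum. The gamma chain transcript was far above those of the alpha chains. Lamc1 was at 44.5 and 44.1 CPM per kb in EM-plasma libraries and 45.5 and 44.8 CPM per kb in Control libraries. Lama4 was at 8.02 and 8.35 CPM per kb in EM-plasma libraries and 9.04 and 8.85 CPM per kb in Control libraries.

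**Figure D3:**
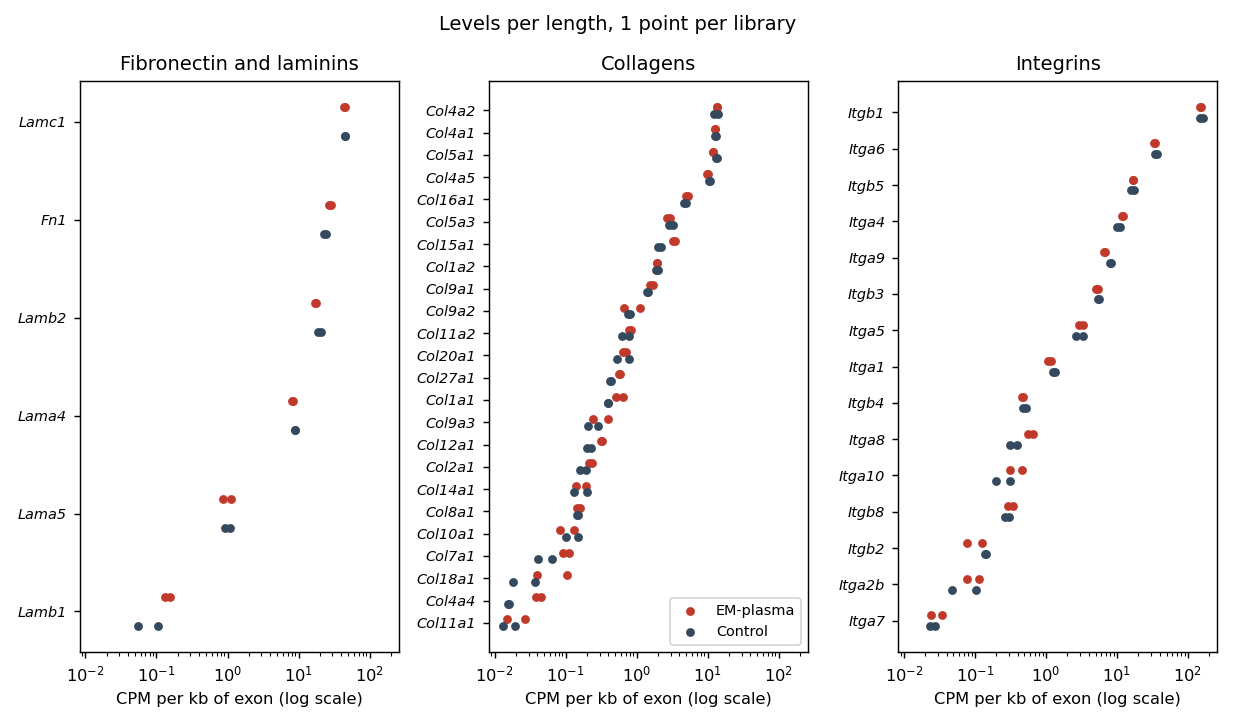
Levels of the 45 genes in CPM per kb of exon on a log axis, 1 point per library, EM-plasma above Control within each gene, genes ordered by their mean. Itgb1 is highest, the levels span about 4 powers of 10, and the points of the 2 groups lie close together for most genes.

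Among the 15 integrin genes 1 rose and 1 fell (13.3%), where 3.34% of all tested genes were called higher and 2.88% lower. Both were alpha chains that pair with the beta chain of Itgb1. Itga8 encodes a receptor chain for fibronectin and nephronectin and lies on chromosome 2 (12106632 to 12301922, ENSMUSG00000026768). It had 4.08 and 4.81 CPM in EM-plasma libraries and 2.90 and 2.34 CPM in Control libraries, with no overlap. The rise was 1.69-fold, the largest of the 6 (log2 fold change 0.76, SE 0.18, 95% interval 0.39 to 1.13, edgeR adjusted p = 0.00906). Without EM-plasma 2 or Control 2 the call ended (edgeR adjusted p = 0.146 and 0.119). Even after the rise Itga8 made up 0.79% and 0.90% of the integrin alpha transcripts per length in EM-plasma libraries, against 0.546% and 0.418% in Control libraries.

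Itga9, whose chain binds tenascin and other matrix ligands, lies on chromosome 9 (118606690 to 118901003, ENSMUSG00000039115). It had 52.1 and 50.3 CPM in EM-plasma libraries and 61.2 and 62.5 CPM in Control libraries. The treated libraries were both below the controls, and the gap between the groups was larger than the spread within either. The fall was 1.21-fold (log2 fold change -0.27, SE 0.059, edgeR adjusted p = 0.00404). Its call ended without EM-plasma 1 or EM-plasma 2 (edgeR adjusted p = 0.0996 and 0.243). Itga4, the structurally closest alpha chain, a receptor for fibronectin and VCAM-1, had 165 and 170 CPM in EM-plasma libraries and 142 and 157 CPM in Control libraries (log2 fold change 0.17, SE 0.051). It just missed the threshold (edgeR adjusted p = 0.051), and it was called without Control 2 (log2 fold change 0.24, edgeR adjusted p = 0.00433) but in none of the other 3 such fits (edgeR adjusted p 0.148 to 0.597). Without Control 1 its log2 fold change was 0.096. It shares 1124 exon bases with Cerkl on the opposite strand, which had 651 reads against 29998 of Itga4. Per length Itga4 exceeded Itga9 by 1.74 and 1.86 times in EM-plasma libraries and by 1.28 and 1.38 times in Control libraries.

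The other integrin chains did not pass the test. Itgb1, the common beta chain, had 604 and 627 CPM in EM-plasma libraries and 614 and 664 CPM in Control libraries (log2 fold change -0.054, 95% interval -0.14 to 0.034). Itga6, a laminin receptor chain, had 300 and 311 CPM in EM-plasma libraries and 309 and 333 CPM in Control libraries (log2 fold change -0.070, 95% interval -0.16 to 0.024). Itga5, the classical fibronectin receptor chain, had 14.3 and 16.6 CPM in EM-plasma libraries and 16.4 and 13.0 CPM in Control libraries (95% interval -0.14 to 0.28). In all 3 the groups overlapped. Itgb3, whose chain pairs with that of Itgav, had 31.8 and 30.4 CPM in EM-plasma libraries and 33.2 and 32.3 CPM in Control libraries (log2 fold change -0.075, 95% interval -0.21 to 0.063). Itga1, a collagen receptor chain, had 19.99 and 22.1 CPM in EM-plasma libraries and 23.4 and 24.7 CPM in Control libraries (log2 fold change -0.19, SE 0.077, edgeR adjusted p = 0.149). Itgb3 and Itga1 had both treated libraries below both controls, as did 24.8% of all tested genes.

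Itgav, whose symbol has no digit and which is therefore not among the 45, was at 141 and 147 CPM in EM-plasma libraries and 156 and 163 CPM in Control libraries (log2 fold change -0.15, SE 0.049, edgeR adjusted p = 0.0622). It was called without Control 1 (edgeR adjusted p = 0.0407) but in none of the other 3 such fits (edgeR adjusted p 0.132 to 0.748). With Itgav counted, Itga6 made up 47.5% and 47.6% of the alpha chain transcripts per length in EM-plasma libraries and 47.4% and 48.6% in Control libraries. Itgb1 made up 86.3% and 87.0% of the beta chain transcripts per length in EM-plasma libraries and 86.2% and 88.0% in Control libraries, followed by Itgb5 and Itgb3. The order of the alpha chains was Itga6, Itgav, Itga4, Itga9, Itga5 and Itga1 in each library. Itgb2, a leukocyte chain, had between 11 and 21 reads in a library, and Itgb2l and Itgb6 had none.

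Of the genes that rose, the table of RefSeq promoters (GRCm38.p6) holds Col15a1, Itga8 and Col27a1. The 250 bases before their starts are shown because each of these genes was called higher, and whether they share any regulation was not tested. Capitals mark the matches to 6 short motifs searched on both strands: the AP-1 site TGACTCA, the core of the antioxidant response element TGACNNNGC, the ATF4-CHOP composite element TGATGNAA, the GC box GGGCGG, the CCAAT box and the TATA box TATAAA.
Col15a1, chr4:47207762-47208011, plus strand: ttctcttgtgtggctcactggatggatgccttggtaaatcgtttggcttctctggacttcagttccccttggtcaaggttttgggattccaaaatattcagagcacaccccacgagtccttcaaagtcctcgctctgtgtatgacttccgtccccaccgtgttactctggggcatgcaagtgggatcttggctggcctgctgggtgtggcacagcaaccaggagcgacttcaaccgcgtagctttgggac
Itga8, chr2:12301945-12302194, minus strand: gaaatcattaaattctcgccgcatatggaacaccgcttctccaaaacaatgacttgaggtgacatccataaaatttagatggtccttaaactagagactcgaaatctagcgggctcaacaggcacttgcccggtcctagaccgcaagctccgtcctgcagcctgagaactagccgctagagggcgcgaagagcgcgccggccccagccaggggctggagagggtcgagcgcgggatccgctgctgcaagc
Col27a1, chr4:63215162-63215411, plus strand: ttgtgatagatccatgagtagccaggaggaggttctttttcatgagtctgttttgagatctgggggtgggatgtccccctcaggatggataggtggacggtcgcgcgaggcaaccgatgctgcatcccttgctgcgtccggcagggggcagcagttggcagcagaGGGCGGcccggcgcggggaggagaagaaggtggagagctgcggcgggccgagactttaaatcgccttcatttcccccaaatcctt

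Only the Col27a1 stretch held a match, 1 GC box that lies 85 to 80 bases before the start. Of all 32851 promoter stretches of that length, 32.7% held a GC box, 33.8% a CCAAT box, 12.4% a TATA box, 10.2% an antioxidant core, 4.46% an AP-1 site and 3.45% a composite element. The first 4 bases of the AP-1 site and of the antioxidant core are the same, so that they can overlap. GC content was 53.6% for Col15a1, 56.4% for Itga8 and 59.6% for Col27a1, against a median of 52.4% over all stretches. A missing match says only that these letters are not in the stretch. The Col15a1 start of RefSeq lies 149 bases from that of the gene annotation and that of Col27a1 1408 bases from it, and 1 exon of a gene on the other strand lies in the Itga8 stretch.

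The proteins that process, cut or accompany this matrix were read from 6 lists. Of their 134 tested genes 11 rose and 10 fell (15.7%), where 6.21% of all tested genes were called, 3.34% higher and 2.88% lower. The log2 fold changes of the 134 had a median of -0.00092. Among matrix proteases and inhibitors 3 of 27 rose and 2 fell (18.5% called). Serpine2, a serine protease inhibitor, had 19.97 and 19.4 CPM in EM-plasma libraries and 12.2 and 11.6 CPM in Control libraries (log2 fold change 0.73, edgeR adjusted p = 1.86e-06). Hpse, the heparan sulfate-cutting heparanase, was lower (log2 fold change -0.49, edgeR adjusted p = 0.00114). Serpine2 and Hpse were called in all 4 fits that leave out a library.

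Of 23 tested other matrix proteins 4 rose (Sparc, Fbln5, Thbs1 and Nid1) and 2 fell (Npnt and Edil3). That is 26.1% called, against 6.21% of all tested genes. Sparc, a collagen-binding matricellular protein, had 698 and 714 CPM in EM-plasma libraries and 539 and 523 CPM in Control libraries (log2 fold change 0.41, edgeR adjusted p = 5.9e-08). Fbln5, an elastic fibre protein, had 68.8 and 67.4 CPM in EM-plasma libraries and 49.8 and 46.4 CPM in Control libraries (log2 fold change 0.50, edgeR adjusted p = 1.96e-06). Npnt, picked out after its values were seen, encodes nephronectin, the ligand of the Itga8 chain, and was lower in EM-plasma libraries. It had 39.7 and 37.7 CPM in EM-plasma libraries and 50.3 and 50.5 CPM in Control libraries (log2 fold change -0.38, edgeR adjusted p = 0.000176), and was called in all 4 fits that leave out a library, as were Sparc, Fbln5 and Thbs1. Nid1, the nidogen that joins laminin to collagen IV, was called without Control 1 (edgeR adjusted p = 0.0362) but not in the other 3 such fits (up to 0.478).

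Collagen folding and crosslinking genes held 1 rise and 1 fall among 27 tested (7.41%), near the 6.21% called of all tested genes. P4ha2, a subunit of the prolyl hydroxylase that stabilises the triple helix, had 61.8 and 60.5 CPM in EM-plasma libraries and 53.3 and 51.4 CPM in Control libraries (log2 fold change 0.22, edgeR adjusted p = 0.0203). It was called in 1 of the 4 fits that leave out a library, the one without Control 1. Loxl2, a lysyl oxidase-like crosslinking enzyme, had 11 and 18 reads in EM-plasma libraries and 93 and 44 reads in Control libraries (log2 fold change -2.17, SE 0.40, edgeR adjusted p = 0.00083), and its call ended without Control 1 (edgeR adjusted p = 0.0712). The controls differed from each other by more than 2-fold in this gene.

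Among 16 tested receptors other than integrins 1 rose and 3 fell (25.0%, against 6.21% of all tested genes). Mcam, a melanoma adhesion molecule that binds laminin, rose 1.48-fold, at 172 and 164 CPM in EM-plasma libraries and 118 and 110 CPM in Control libraries (edgeR adjusted p = 1.16e-08, called in all 4 fits that leave out a library). Lrp1, an endocytic receptor, had 129 and 128 CPM in EM-plasma libraries and 166 and 138 CPM in Control libraries (edgeR adjusted p = 0.0129), and was called only without Control 2 among those 4 fits (up to 0.171 in the others). Of 39 integrin adaptors and focal adhesion kinases 2 rose and 2 fell (10.3%). Zyx, the focal adhesion protein zyxin, had 237 and 233 CPM in EM-plasma libraries and 203 and 180 CPM in Control libraries (log2 fold change 0.29, edgeR adjusted p = 0.000416). Itgb3bp, listed for its binding to the integrin beta3 tail and also known as a centromere protein, fell (log2 fold change -0.29, edgeR adjusted p = 0.00501), and was called without Control 1 but in none of the other 3 such fits (up to 0.131).

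**Figure D4:**
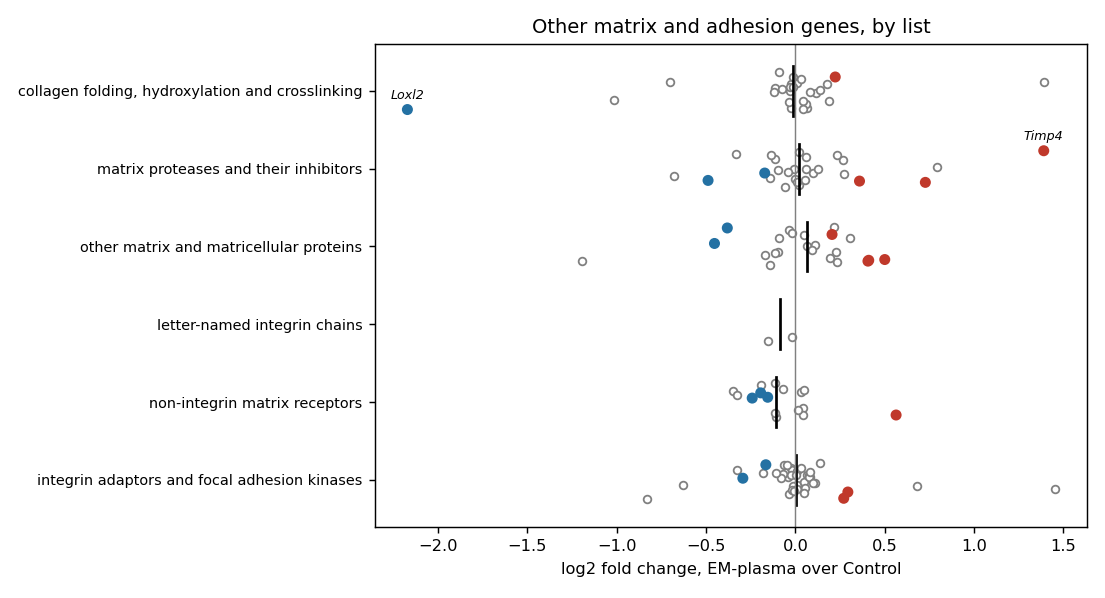
Log2 fold change of EM-plasma over Control for the tested genes of 6 lists, 1 point per gene, with the median of each list as a black bar; filled red points were called higher and filled blue points lower, and called genes past 1 on the log2 scale are named. The medians lie between -0.11 and 0.066, and the called genes fall on both sides of 0.

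**Figure D5:**
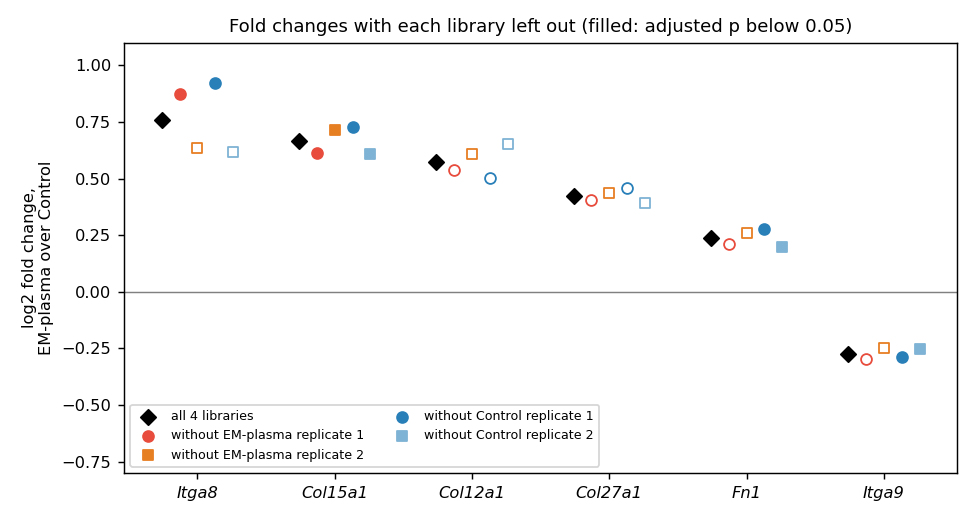
Log2 fold change of the 6 called genes with all 4 libraries and with each library left out in turn; filled points passed an adjusted p of 0.05. Every point keeps its side of 0, and Col15a1 is the one gene filled throughout.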

How the data were processed

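Poly(A) RNA of 4 libraries was sequenced after a stranded Illumina preparation, per the labels' protocols. The submitters' processing notes name CASAVA, TopHat2 2.1.1, HTSeq and edgeR and the build GRCm38, with no role or order. Neither the annotation nor the strand setting used for counting is given in the sources used here, so overlapping and antisense genes may share reads. The authors deposited a table of whole-number counts per Ensembl gene. They also deposited a scaled signal per library, which equalled the deposited counts times 1 constant and served only to check the columns.

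Symbols, positions and exon lengths (union of annotated exons) came from GENCODE M21 on GRCm38, and 53274 of 53465 rows had a symbol. The 191 rows without one stayed in the fit. Genes were kept by filterByExpr (minimum count 10, 13664 genes) and tested with edgeR 4.0.16 in R 4.3.3 (TMM, quasi-likelihood F test, two-sided, group alone). SE is the absolute log2 fold change over the square root of F. DESeq2 1.42.0 and limma 3.58.1 served as alternatives. The procedure was tested on simulated data. The median SE of a log2 fold change was 0.0698. Intervals hold counting error and differences between libraries of a group, and no other error.

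Genes named in the text were all those called, the most abundant of each structural class, a fixed set of partner chains and up to 2 called genes per list, and any others were picked after their values were seen. Some genes are not reported here, and the counts over the 6 pathway lists leave them out. The genes, lists and rules were chosen with earlier results of these data known. Alternatives were other scalings, filters, dispersions and tests, leaving out each library, and a replicate block.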

Additional observations from a re-analysis of the deposited data

How the results depend on the processing

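Scaling by DESeq2 size factors or by total counts, the newer edgeR dispersion and the stricter filter each called all 6 genes and added Itga4 (2 integrins higher). DESeq2 called 3 of the 45 genes higher and 1 lower (1 collagen higher), and 277 genes of all higher. The limma-voom fit called 5 of the 45, all but Col27a1 of the 6. With no low count filter the prior degrees of freedom fell to 3.36, against 25.5, and 0 of the 45 genes, 0 collagens higher and 0 integrins in either direction were called, with 13 genes of all higher and 1 lower, and 1 pathway gene higher and 0 lower. Fn1 then had a log2 fold change of 0.23 (edgeR adjusted p = 0.18). Fits that leave out a library called 1 to 3 of the 45 genes higher and 0 to 2 lower: 1 collagen higher in each, 0 to 1 laminin lower, 0 to 1 integrin higher and 0 to 1 lower. They called 163 to 525 genes of all higher and 88 to 593 lower, and 6 to 13 pathway genes higher and 3 to 13 lower, and the log2 fold change of Fn1 ran from 0.20 to 0.28. Those fits also estimate the spread differently, and a lone library is assumed to vary like the other group. The coefficient of variation was 5.01% without either EM-plasma library and 2.46% and 2.43% without Control 1 and Control 2, against 4.0% with all libraries. The Control libraries differed from each other more than the EM-plasma libraries did (chi-square per degree of freedom 8.04 against 2.93). Without an EM-plasma library the spread thus came from the Control pair alone. Genes near 0 changed sign among them: Col1a2 ran from -0.053 to 0.065, Col4a1 from -0.043 to 0.011, Col4a2 from -0.07 to 0.12, Itga5 from -0.082 to 0.25 and Itgb1 from -0.11 to 0.0070, and none of these 5 was called in any.

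The replicate numbers of the titles were not taken to pair the samples, since the labels give no design beyond the 2 groups. Deviations of same-numbered libraries correlated at 0.0393 over 13664 genes. Each gene weighed the same there whatever its count, so counting error can hide a shared replicate effect. That value therefore cannot show that the libraries were unpaired. With the replicate block 7 of the 45 genes were called higher and 4 lower (1 collagen and 2 laminins lower, 2 integrins higher), adding Col1a1, Itga4, Col5a1, Lama4 and Lamb2. It called 832 genes of all higher and 851 lower, against 456 and 393 without the block, and 19 pathway genes lower. Under about 1 CPM (Col4a4, Col18a1, Itga7, Col11a1) counting error limits what could be seen.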
